A study of Mus musculus with 6 samples.

Results

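Muscle contraction is switched on and off by calcium, and the genes described here pump, brake and buffer that calcium in the fiber. They are the 3 SERCA pump genes (Atp2a1, Atp2a2 and Atp2a3), the regulators sarcolipin (Sln) and phospholamban (Pln), the calsequestrins Casq1 and Casq2, and parvalbumin (Pvalb). They were chosen by symbol from the rows of the deposited count files, and they make up 8 of 24421 genes. All 8 passed the filter on low counts, which 14180 genes passed in all. RNA-seq was performed on whole gastrocnemius/plantaris (GP) muscle of male mice, with 3 mice in each of the Ctrl and cKO groups. Per the study's methods, the floxed Net39 allele was made in B6C3F1 zygotes, and the founders were mated to mice of another strain. All 6 mice were homozygous for the floxed Net39 allele (Net39 fl/fl), received tamoxifen for 5 days from 8 weeks of age, and were 5 months old, 3 months after tamoxifen, when muscle was taken. Ctrl mice carried no Cre (Net39 fl/fl, Cre-), whereas cKO mice carried HSACreERT2, a tamoxifen-inducible Cre under the human skeletal actin promoter that is active in muscle fibers and not in satellite cells or in the heart. NET39 is a nuclear envelope protein of muscle, and the comparison asks how its loss in adult fibers changes the transcriptome.

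A fiber relaxes when SERCA pumps, driven by ATP, return calcium from the cytosol into the sarcoplasmic reticulum. SERCA1, from Atp2a1, is the pump of fast fibers; SERCA2, from Atp2a2, is that of slow fibers and the heart; and SERCA3, from Atp2a3, is found mostly outside muscle, in blood and endothelial cells. Sarcolipin and phospholamban are small membrane proteins that bind the pump and lower its activity. Calsequestrin holds calcium inside the reticulum, mainly as Casq1 in fast fibers, with Casq2 the form of the heart and an added form in slow fibers. Parvalbumin binds calcium in the cytosol of fast fibers and speeds their relaxation.

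The targeted gene went against the sample labels. Net39, listed in the files as Ppapdc3, had 310, 321 and 217 counts in Ctrl 1, 2 and 3, and 5365, 4340 and 6080 counts in cKO 1, 2 and 3. The deleted mice are expected to have fewer Net39 transcripts, so the groups are named here only as labelled, and every direction below is a direction between labels, which would turn if the labels were exchanged. Libraries held 33860001 to 48839910 counted reads. The muscle fiber markers Acta1, Ckm and Mb summed to 42403 to 45392 counts per 1000000 counted reads (CPM) in Ctrl-labelled libraries and to 45190 to 59620 CPM in cKO-labelled ones. In whole muscle, fewer fibers of a type and less RNA in each of them cannot be told apart.

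Sarcolipin and phospholamban are read from very short open reading frames, shown here because both regulators act on the same pump. Each sequence is the reference coding sequence of mouse genome GRCm38 with GENCODE M21 annotation, 5′ to 3′, with the start and stop codons in capitals. The Sln frame, chr9:53853473-53853568 on the plus strand, has 96 bases and encodes 31 residues. The Pln frame, chr10:53343864-53344022 on the plus strand, has 159 bases and encodes 52 residues.
Sln: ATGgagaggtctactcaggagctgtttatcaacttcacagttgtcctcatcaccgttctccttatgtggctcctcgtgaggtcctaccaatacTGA
Pln: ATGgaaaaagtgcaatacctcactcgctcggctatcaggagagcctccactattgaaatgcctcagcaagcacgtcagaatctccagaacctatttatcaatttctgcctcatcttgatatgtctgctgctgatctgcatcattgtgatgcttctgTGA

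The members moved in both directions. Atp2a1 and Pvalb were higher in the libraries labelled cKO, by 2.02-fold and 2.71-fold. Sln, Atp2a2 and Casq2 were lower there, by 155-fold, 6.73-fold and 2.93-fold. A gene was called when edgeR's quasi-likelihood test gave an adjusted p below 0.05 and a change of more than 2-fold. By that rule 2 of the 8 members were called higher under the cKO label, where 2.13% of all tested genes were, and 3 were called higher under the Ctrl label, where 3.92% of all tested genes were (6.05% in either direction). On the adjusted p alone, 3 members were higher under the cKO label against 12.6% of all tested genes, and 3 under the Ctrl label against 11.8%. Scaling by library totals alone moved the median of all genes to -0.27, called 1 member toward cKO and 3 toward Ctrl, and called 157 genes toward cKO and 1022 toward Ctrl in all, beside 302 and 556 here; the 8 directions were the same under both scalings. The 3 libraries of one label lay wholly above those of the other for 7 of the 8 members, Atp2a3 being the exception, and for 43.9% of all tested genes. The median log2 fold change, labelled cKO over labelled Ctrl, was -0.50 over the 8 members and -0.02 over all tested genes. Counts of the 8 genes took 2.60%, 2.96% and 3.33% of all counted reads in Ctrl-labelled libraries and 4.63%, 4.65% and 4.39% in cKO-labelled ones.

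**Figure D1:**
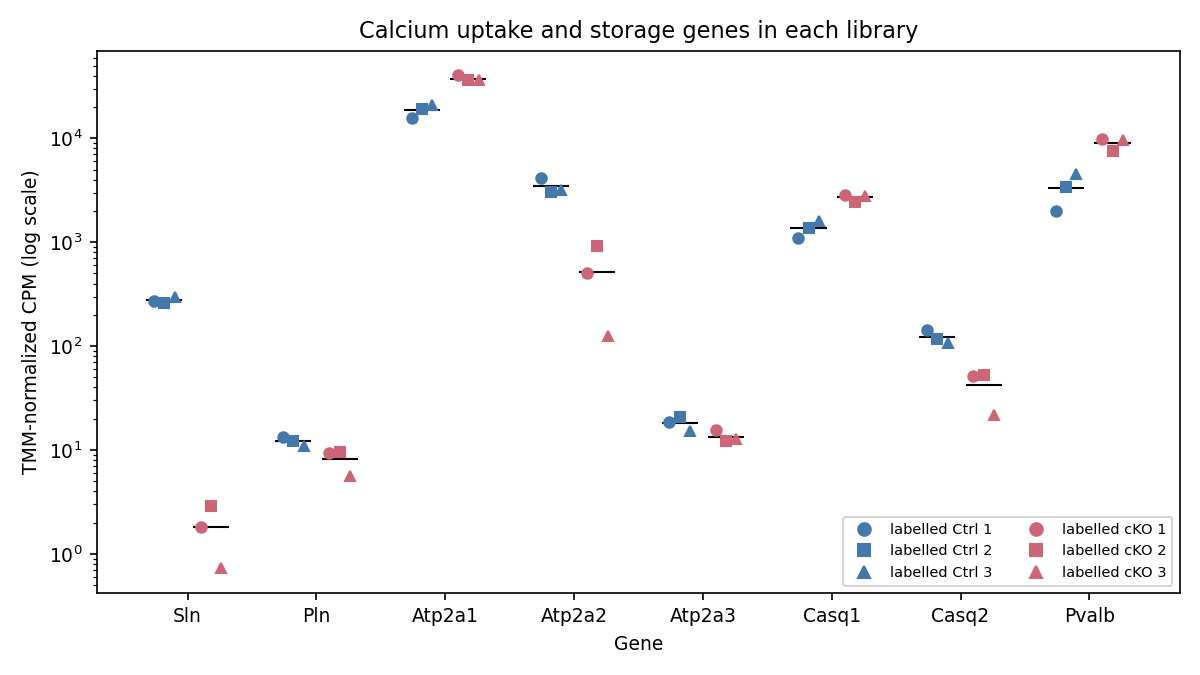
CPM of the 8 genes in each of the 6 libraries (log axis); points are libraries and bars are group means. Sln lies between 261 and 294 CPM in Ctrl-labelled libraries and at or below 2.86 CPM in cKO-labelled ones, whereas the groups overlap for Atp2a3.

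**Figure D2:**
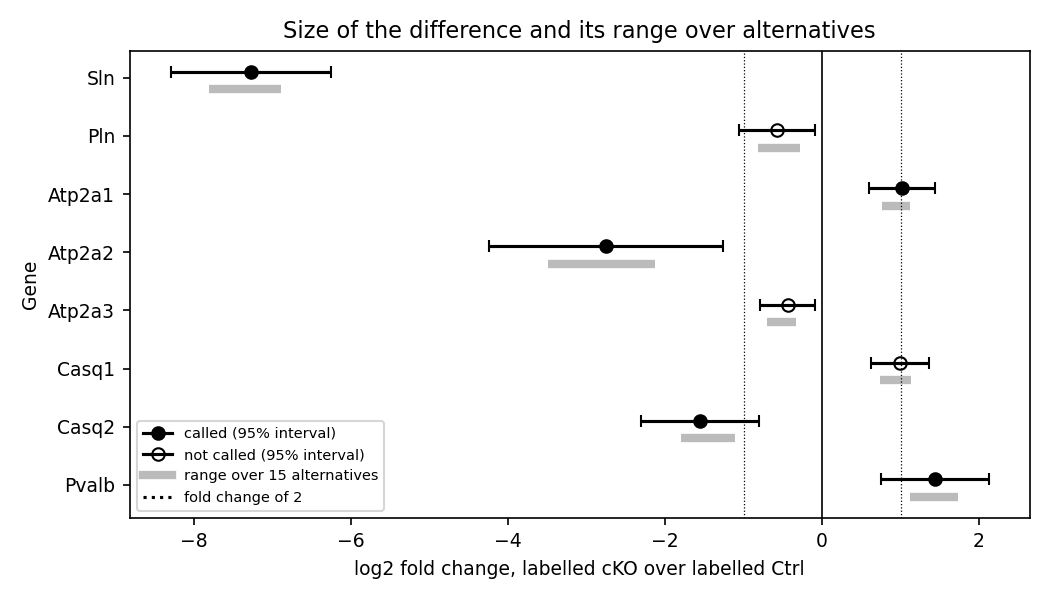
The log2 fold change of each gene, labelled cKO over labelled Ctrl, with its 95% confidence interval from edgeR; dotted lines mark a 2-fold change. Sln lies furthest from 0 at -7.28, and Casq1, at 0.99, lies just short of the 2-fold line.

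Sarcolipin showed the largest difference. Sln lies on chromosome 9 (53850164 to 53854560, plus strand, 2 exons). It had 272, 261 and 294 CPM in Ctrl-labelled libraries and 1.81, 2.86 and 0.727 CPM in cKO-labelled ones. The raw counts behind these values were 10664, 10836 and 10756 against 64, 110 and 32, so the gene remained detectable in every library. The group means were 276 ± 16.6 (SD, n = 3) and 1.80 ± 1.06 CPM (SD, n = 3). The Ctrl-labelled libraries were nearly equal, and the cKO-labelled ones varied among themselves by 3.93-fold, far less than the gap between groups. The log2 fold change was -7.28 (SE 0.44, 95% interval -8.30 to -6.25, edgeR, adjusted p = 0.00055). Among the 8059 tested genes with a mean of at least 10 CPM, no other gene differed by more, and Sln held place 399 under the Ctrl label and place 11427 under the cKO label in the order of the 14180 tested genes by mean CPM. The call held in all 15 alternative settings and left-out libraries, with log2 fold changes from -7.82 to -6.89. Sln is also a transcript of the heart atrium, and the atrial marker Myl7 had 0 counts in 5 libraries and 1 count in Ctrl 2. Nppa, atrial natriuretic peptide, had 5 to 16 counts per library. The third gene of the atrial list, Myl4, had 139 to 473 counts in every library, and its groups overlapped (log2 fold change 0.33, edgeR, adjusted p = 0.574). The list summed to 4.95 to 6.49 CPM under the Ctrl label and to 4.15 to 12.4 CPM under the cKO label, and its part in the Sln values was not tested.

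Phospholamban, the regulator best known from heart and slow fibers, was lower under the cKO label in every library, but the difference did not pass the main test. Pln (chromosome 10, 53337667 to 53345987, plus strand) had 13.3, 12.3 and 10.8 CPM in Ctrl-labelled libraries and 9.43, 9.53 and 5.64 CPM in cKO-labelled ones. The groups did not overlap, and cKO 3 was the lowest library. A log2 fold change of -0.57 (SE 0.21, 95% interval -1.05 to -0.08) had an adjusted p of 0.0864 (edgeR). The adjusted p was 0.0488 in DESeq2 (-0.56) and 0.0295 in edgeR when scaled by library totals alone (-0.82), both without a 2-fold change. Of the 2759 exon bases of Pln, 1785 are shared with Cep85l and Gm47644 on the opposite strand, and whether reads were counted by strand is not given in the sources used here. Cep85l itself had a log2 fold change of 0.80 that did not pass the test (edgeR, adjusted p = 0.23). The smooth muscle list (Acta2, Myh11, Tagln and Cnn1), of a tissue that also uses phospholamban, summed to 238 to 255 CPM under the Ctrl label and to 153 to 192 CPM under the cKO label, with Myh11, Tagln and Cnn1 passing the test toward Ctrl; its part in the Pln values was not tested.

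Levels of different genes were compared as CPM per kilobase of exon. On that scale the libraries labelled Ctrl held 42.8, 44.7 and 56.9 Sln transcripts per Pln transcript, and those labelled cKO held 0.401, 0.627 and 0.270. Sarcolipin thus exceeded phospholamban in every Ctrl-labelled library and was below it in every cKO-labelled one. Sln per 100 SERCA transcripts (the 3 pump genes summed) was 3.98, 3.31 and 3.39 against 0.0117, 0.0205 and 0.0053. Pln per 100 SERCA transcripts was 0.0932, 0.0742 and 0.0596 against 0.0292, 0.0326 and 0.0196. The groups were apart for each of these ratios, and the 2-sided exact permutation test gave p = 0.10, the smallest value that 3 libraries against 3 allow.

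The pump genes Atp2a1 and Atp2a2 differed between the labels in opposite directions. Atp2a1 (chromosome 7, 126445858 to 126463108, minus strand), which encodes SERCA1, had 15628, 19051 and 21067 CPM in Ctrl-labelled libraries and 40383, 36269 and 36097 CPM in cKO-labelled ones. It was the third most abundant tested gene by mean CPM under the Ctrl label, and it was second under the cKO label. The difference was 1.02 on the log2 scale (SE 0.18, 95% interval 0.60 to 1.44, edgeR, adjusted p = 0.00918), which is 2.02-fold and close to the 2-fold limit. Without Ctrl 1 it was 0.91 and without cKO 1 it was 0.95, both under that limit. The call was also lost when scaled by library totals alone (0.76) or by upper quartile factors (0.99), and without Ctrl 1 and cKO 3 together (0.94, edgeR, adjusted p = 0.176). With the mouse number as a replicate block, the call was lost too (1.02, edgeR, adjusted p = 0.0544). Of 3477 exon bases, 763 are shared with Rabep2 on the opposite strand, whose log2 fold change was -0.16 (edgeR, adjusted p = 0.416).

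Atp2a2 (chromosome 5, 122453513 to 122502225, minus strand), which encodes SERCA2, moved the other way. It had 4186, 3072 and 3197 CPM in Ctrl-labelled libraries and 503, 925 and 125 CPM in cKO-labelled ones. The cKO-labelled libraries differed among themselves by 7.42-fold, the widest spread of the 8 genes, and none reached the lowest Ctrl-labelled library. On the log2 scale the difference was -2.75 (SE 0.63, 95% interval -4.24 to -1.26, edgeR, adjusted p = 0.0217). The direction was the same without any single library, but the adjusted p (edgeR) rose to 0.0671 without Ctrl 1, 0.0531 without Ctrl 2 and 0.0778 without cKO 1.

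Atp2a3 (chromosome 11, 72961169 to 72993044, plus strand), which encodes SERCA3, had 18.7, 20.9 and 15.1 CPM in Ctrl-labelled libraries and 15.5, 12.2 and 12.7 CPM in cKO-labelled ones. The groups overlapped, and the log2 fold change of -0.44 (SE 0.15, 95% interval -0.79 to -0.09) did not pass the test (edgeR, adjusted p = 0.07). The adjusted p was 0.0117 when scaled by library totals alone (-0.70) and 0.0303 without Ctrl 3 (-0.55), both in edgeR, and 0.0491 in DESeq2 (-0.43), none with a 2-fold change. Markers of the blood and vessel cells that use SERCA3 were also read. The platelet list (Itga2b, Pf4 and Gp9) summed to 8.88 to 10.5 CPM against 5.22 to 7.61 CPM, with Pf4 passing the test toward Ctrl and Gp9 at 0 to 4 counts. The immune list (Ptprc, Cd68, Adgre1, Itgam, Cd3e and Cd79a) summed to 21.2 to 30.5 CPM against 9.14 to 17.2 CPM, with Cd68 and Adgre1 passing toward Ctrl and Cd3e and Cd79a at 16 counts or fewer. The endothelial list of 4 genes summed to 342 to 360 CPM against 308 to 337 CPM, and none of the 4 passed; the part of these cells in the Atp2a3 values was not tested.

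By length, SERCA1 took 86.7%, 91.5% and 92.0% of the 3 pumps' transcripts in Ctrl-labelled libraries and 99.3%, 98.5% and 99.8% in cKO-labelled ones, means of 90.0% ± 2.94 and 99.2% ± 0.623 (SD, n = 3). The SERCA2 share was 13.3%, 8.44% and 7.98% against 0.707%, 1.44% and 0.197%. SERCA2 thus took more of the pump transcripts in every Ctrl-labelled library than in any cKO-labelled one. Both shares were apart between groups (2-sided exact permutation p = 0.10, the smallest possible).

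**Figure D3:**
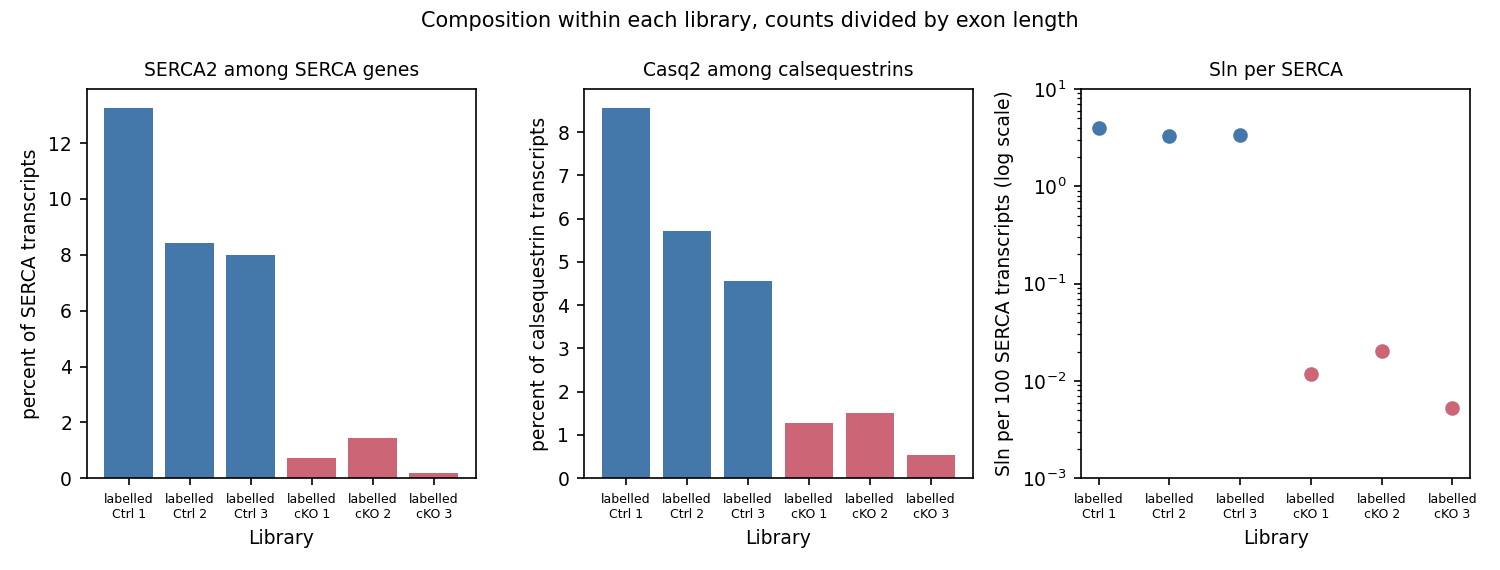
Make-up of the calcium store by library, from CPM per kilobase: the SERCA2 share of SERCA transcripts, the Casq2 share of calsequestrin transcripts, and sarcolipin per 100 SERCA transcripts. Each bar in the share panels and each point in the sarcolipin panel is a single library. In each panel the 3 libraries labelled cKO lie below the 3 labelled Ctrl, and in the share panels cKO 3 is lowest, with 0.197% for SERCA2.

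The calsequestrins, the calcium store inside the reticulum, moved in opposite directions. Casq1 (chromosome 1, 172209894 to 172219868, minus strand) had 1096, 1374 and 1603 CPM in Ctrl-labelled libraries and 2827, 2460 and 2815 CPM in cKO-labelled ones. Every cKO-labelled library was above every Ctrl-labelled one. The log2 fold change of 0.99 (SE 0.16, 95% interval 0.62 to 1.37) passed the test (edgeR, adjusted p = 0.00724), but at 1.99-fold it fell just short of the 2-fold limit. It passed that limit without Ctrl 2, Ctrl 3 or cKO 2, where the log2 fold change reached up to 1.13.

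Casq2 (chromosome 3, 102086415 to 102146514, plus strand) had 144, 117 and 108 CPM in Ctrl-labelled libraries and 51.3, 52.7 and 21.6 CPM in cKO-labelled ones. All cKO-labelled libraries were lower, and cKO 3 was the lowest, as for Atp2a2 and Sln. The log2 fold change was -1.55 (SE 0.32, 95% interval -2.31 to -0.80, edgeR, adjusted p = 0.0157), and without Ctrl 1 the adjusted p (edgeR) was 0.0564 with a log2 fold change of -1.42. By length, Casq2 made up 8.57%, 5.71% and 4.57% of calsequestrin transcripts under the Ctrl label and 1.28%, 1.50% and 0.544% under the cKO label (2-sided exact permutation p = 0.10, the smallest possible).

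Parvalbumin, the cytosolic buffer, was higher under the cKO label. Pvalb (chromosome 15, 78191114 to 78206400, minus strand) had 2008, 3419 and 4565 CPM in Ctrl-labelled libraries and 9797, 7623 and 9635 CPM in cKO-labelled ones. The Ctrl-labelled libraries spread over 2.27-fold, with Ctrl 1 lowest, and all 3 lay below the cKO-labelled libraries. Its log2 fold change was 1.44 (SE 0.29, 95% interval 0.75 to 2.13, edgeR, adjusted p = 0.0149). The adjusted p (edgeR) rose to 0.0532 without Ctrl 2 and to 0.0517 without cKO 3, at log2 fold changes that stayed between 1.18 and 1.73 whichever library was left out. Without Ctrl 1 and cKO 3 together, Pvalb was not called (1.13, edgeR, adjusted p = 0.0999). Per 100 SERCA transcripts by length, Pvalb stood at 37.2, 54.9 and 66.6 under the Ctrl label and at 80.4, 69.2 and 89.0 under the cKO label.

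In order of level by length, the libraries labelled Ctrl ran from Atp2a1 (5344 CPM per kilobase) and Pvalb (3199) through Casq1 (696), Atp2a2 (573), Sln (209) and Casq2 (44.8) to Pln (4.40) and Atp2a3 (3.45). Casq1 and Atp2a2 overlapped across libraries in that order, as did Pln and Atp2a3. Under the cKO label the order was Atp2a1 (10809), Pvalb (8663), Casq1 (1384), Atp2a2 (85.1), Casq2 (15.3), Pln (2.97), Atp2a3 (2.55) and Sln (1.36), again with Pln and Atp2a3 overlapping. Sln was the fifth in the first order and the last in the other, whereas the first 4 places were held by the same genes in the same order.

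The promoters were searched for motifs of transcription factors known from muscle genes, and the stretches that held the rarer match are shown. RefSeq windows of 250 bases before a start site (GRCm38.p6) matched 6 of the 8 genes, with 7 windows; Sln and Atp2a2 had none. The MEF2 consensus, searched on both strands, was found in the Casq2 window, 69 bases before the start, and in one of the Pvalb windows, 180 bases before its start; 2.92% of 32851 windows of the same length hold it. The stretches around those matches are printed 5′ to 3′ on the strand of the gene, with the match in capitals. The Casq2 stretch is chr3:102086306-102086395 on the plus strand and the Pvalb stretch is chr15:78206531-78206620 on the minus strand.
Casq2: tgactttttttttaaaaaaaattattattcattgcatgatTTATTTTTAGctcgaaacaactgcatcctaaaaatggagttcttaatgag
Pvalb: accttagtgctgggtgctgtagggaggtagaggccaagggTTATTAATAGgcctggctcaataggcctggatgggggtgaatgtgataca

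Casq2 and Pvalb moved in opposite directions, so a match was seen with both. The E-box CANNTG was found before Atp2a1, Casq1, Casq2, Pln and the other Pvalb start and not before Atp2a3, and 66.2% of windows hold it. The CArG box was found before none of them, and 1.47% of windows hold it. A match describes these letters only.

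Fiber type markers moved beside the members. The slow fiber list (Myh7, Myl2, Myl3, Tnnc1, Tnni1, Tnnt1 and Tpm3) summed to 5283 to 10411 CPM in Ctrl-labelled libraries and to 322 to 2948 CPM in cKO-labelled ones, and 2 of its 7 genes, Myl2 and Tnnt1, passed the test, both toward Ctrl. The fast fiber list (Myh4, Myh1, Myh2, Tnnt3, Tnni2, Tnnc2, Mylpf and Actn3) summed to 62969 to 85561 CPM against 118430 to 151490 CPM, and all 8 passed, 6 toward cKO and Myh1 and Myh2 toward Ctrl. Myh7, slow myosin, had 3676, 1723 and 2219 CPM under the Ctrl label and 494, 974 and 75.3 CPM under the cKO label, with the same order of cKO-labelled libraries as Atp2a2.

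Each member was also expressed against these markers, a scale chosen after the data were seen. Per 1000 Myh7 counts, Sln had 74.1, 152 and 133 counts in Ctrl-labelled libraries and 3.65, 2.93 and 9.66 in cKO-labelled ones, a 24.3-fold difference of geometric means (29.6-fold per slow fiber list). Atp2a2 had 1139, 1782 and 1441 counts per 1000 Myh7 counts under the Ctrl label and 1017, 950 and 1656 under the cKO label, and the groups overlapped (2-sided exact permutation p = 0.40). Thus the Sln groups remained apart on this scale and the Atp2a2 groups did not. Per slow fiber list, the Atp2a2 groups were apart again, at -0.57 on the log2 scale, against -2.75 without the marker. Pln and Casq2, lower under the cKO label as CPM, were higher there per Myh7 count, by 2.26 and 1.22 on the log2 scale, with the Casq2 groups overlapping. Per 1000 counts of the fast fiber list, Atp2a1 had 248, 237 and 246 counts against 267, 306 and 255, Casq1 had 17.4, 17.1 and 18.7 against 18.7, 20.8 and 19.9, and Pvalb had 31.9, 42.5 and 53.4 against 64.7, 64.4 and 68.1. On that scale the differences were 0.17 for Atp2a1, 0.16 for Casq1, whose groups overlapped, and 0.66 for Pvalb, all on the log2 scale. The part of fiber make-up in any of these differences was not tested.

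**Figure D4:**
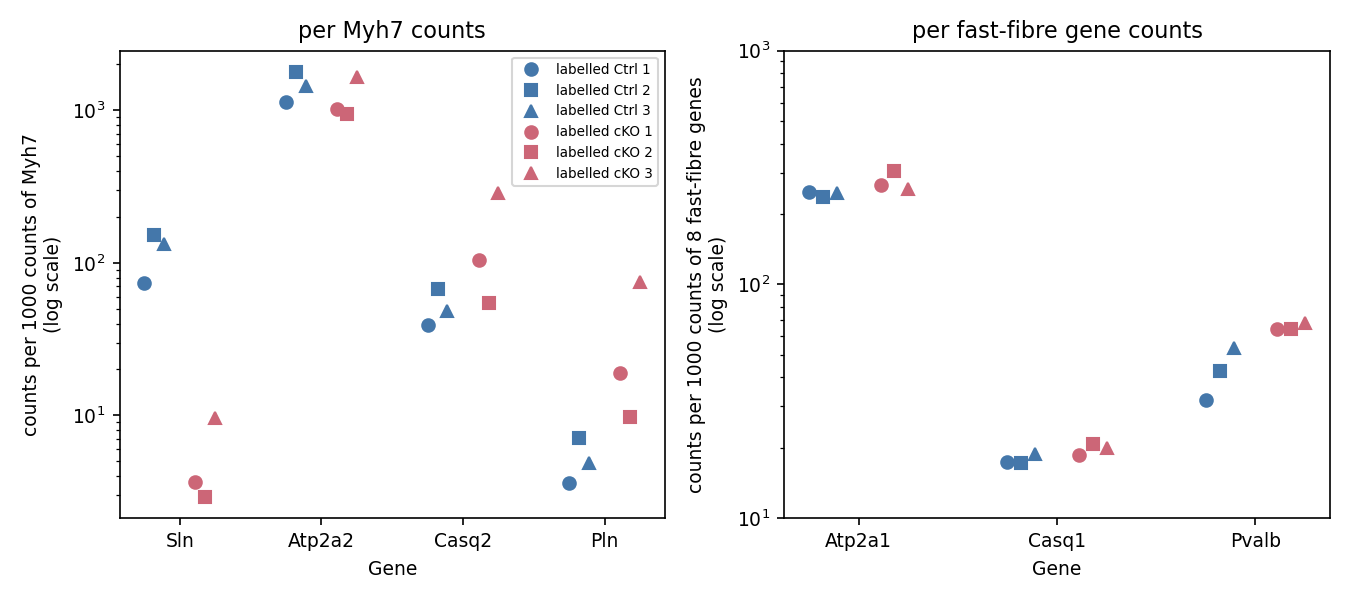
Left, counts of Sln, Atp2a2, Casq2 and Pln per 1000 counts of Myh7; right, counts of Atp2a1, Casq1 and Pvalb per 1000 counts of 8 fast fiber genes; both on log axes, with points for libraries. Sln stays apart, between 74.1 and 152 under the Ctrl label and between 2.93 and 9.66 under the cKO label, whereas Atp2a2 overlaps.

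The rest of the calcium machinery was read from a list of 57 genes in 8 roles. Strit1 and Erln were not analysed here, and Calb1, Calb2 and Ocm had at most 4 counts in any library, which left 52 tested genes. Of these, 4 were called higher under the cKO label and 2 under the Ctrl label, beside 2.13% and 3.92% of all tested genes. On the adjusted p alone 19 (36.5%) were higher under the cKO label and 9 (17.3%) under the Ctrl label, beside the 12.6% and 11.8% of all tested genes given above, and the median log2 fold change was 0.07. Scaled by library totals alone, 13 and 20 of the 52 passed in those directions, and without Ctrl 1 and cKO 3 together 1 passed in each, from 2 libraries a group. Genes named in what follows that were neither called nor the most abundant of their role were named after their values were seen.

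Myoregulin (Mrln), like sarcolipin a micropeptide that restrains SERCA in skeletal muscle, moved opposite to Sln. It had 7.20, 12.1 and 18.1 CPM in Ctrl-labelled libraries and 40.1, 44.7 and 39.8 CPM in cKO-labelled ones, with no overlap. Its log2 fold change was 1.74 (SE 0.29, edgeR, adjusted p = 0.00809). The genes that couple the T-tubule to the reticulum were 15 in the release channel and triad list. On the adjusted p, 10 of them (66.7%) were higher under the cKO label, none by more than 2-fold, beside 12.6% of all tested genes. Toward Ctrl 1 passed, Cacnb1 (6.67%), beside 11.8% of all tested genes. Fold changes were above 0 for 11 of the 15 whichever library was left out, but the 10 became 5 without Ctrl 1, cKO 1 or cKO 3 and 4 without Ctrl 2, and the 1 toward Ctrl was lost when any single library other than cKO 2 was left out. Scaled by library totals alone, 5 of the 15 passed toward cKO and 4 toward Ctrl. Without Ctrl 1 and cKO 3 together, 0 of the 15 passed in either direction. Ryr1, the calcium release channel, had 5106 ± 531 CPM (SD, n = 3) against 7983 ± 1415 CPM (SD, n = 3) and a log2 fold change of 0.64 (edgeR, adjusted p = 0.0342, but 0.102 to 0.112 without Ctrl 1, Ctrl 2, cKO 1 or cKO 3).

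Of 8 genes of mitochondrial calcium uptake, 5 (62.5%, among them Mcu, Mcub, Micu2 and Slc8b1) passed toward Ctrl, beside 11.8% of all tested genes, and 1, Micu3, toward cKO. The 5 became 3 without Ctrl 1 or Ctrl 2, 2 without cKO 1 or cKO 3, and 0 without Ctrl 1 and cKO 3 together; library totals alone gave 7. Mcub, listed as Ccdc109b and a dominant-negative partner of the uniporter, was low throughout, with 1.23, 1.16 and 1.94 CPM against 0.536, 0.675 and 0.591 CPM, and it was called (log2 fold change -1.25, SE 0.28, edgeR, adjusted p = 0.0204), though not without Ctrl 3 (-0.98), cKO 1 (-1.19) or cKO 3 (-1.25), or without Ctrl 1 and cKO 3 together (-1.34).

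Among the calmodulin kinases, which read the calcium signal, the isoforms parted. Camk2a had 196, 262 and 340 CPM in Ctrl-labelled libraries and 661, 555 and 580 CPM in cKO-labelled ones, a log2 fold change of 1.17 (SE 0.20, edgeR, adjusted p = 0.00805), but it was under 2-fold without Ctrl 1 (0.99) and when scaled by library totals alone (0.91), and without Ctrl 1 and cKO 3 together the adjusted p (edgeR) was 0.0666. Camk2d had 108, 135 and 179 CPM against 56.6, 62.1 and 62.0 CPM, a log2 fold change of -1.22 (SE 0.18, edgeR, adjusted p = 0.00524). Neither pair of groups overlapped, and Camk2g, at 0.64, also passed toward cKO. Of 4 tested cytosolic binding genes, 2 passed toward cKO, among them Calm3 (0.96).

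Of 5 store refill genes, 1 (20%) passed toward cKO, and of 7 surface export genes 1 (14.3%), beside 12.6% of all tested genes. The refill gene was Stim2, a reticulum calcium sensor, with 27.1, 35.4 and 41.8 CPM against 82.9, 60.6 and 75.3 CPM and a log2 fold change of 1.07 (SE 0.18, edgeR, adjusted p = 0.00785), but it was under 2-fold without Ctrl 1 (0.92), without cKO 1 (0.96), without Ctrl 1 and cKO 3 together (0.90) and when scaled by library totals alone (0.81). Its paralog Stim1 had 341 ± 20.7 CPM against 298 ± 20.1 CPM (SD, n = 3) and did not pass (edgeR, adjusted p = 0.164). The export gene was Atp2b3, at 0.91, and no export gene passed without Ctrl 1. Atp2b1, a calcium pump of the surface membrane and the most abundant export gene, did not pass at 0.07 (edgeR, adjusted p = 0.544; -0.18 when scaled by library totals alone). Of 8 genes of the reticulum lumen and membrane, sarcalumenin (Srl, 0.32) passed toward cKO, though not once any 1 of the 6 libraries was left out (edgeR, adjusted p 0.0613 to 0.164), and Calu (-0.33) and Canx (-0.67) toward Ctrl, where 1 gene passed when any single library other than cKO 2 was left out.

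**Figure D5:**
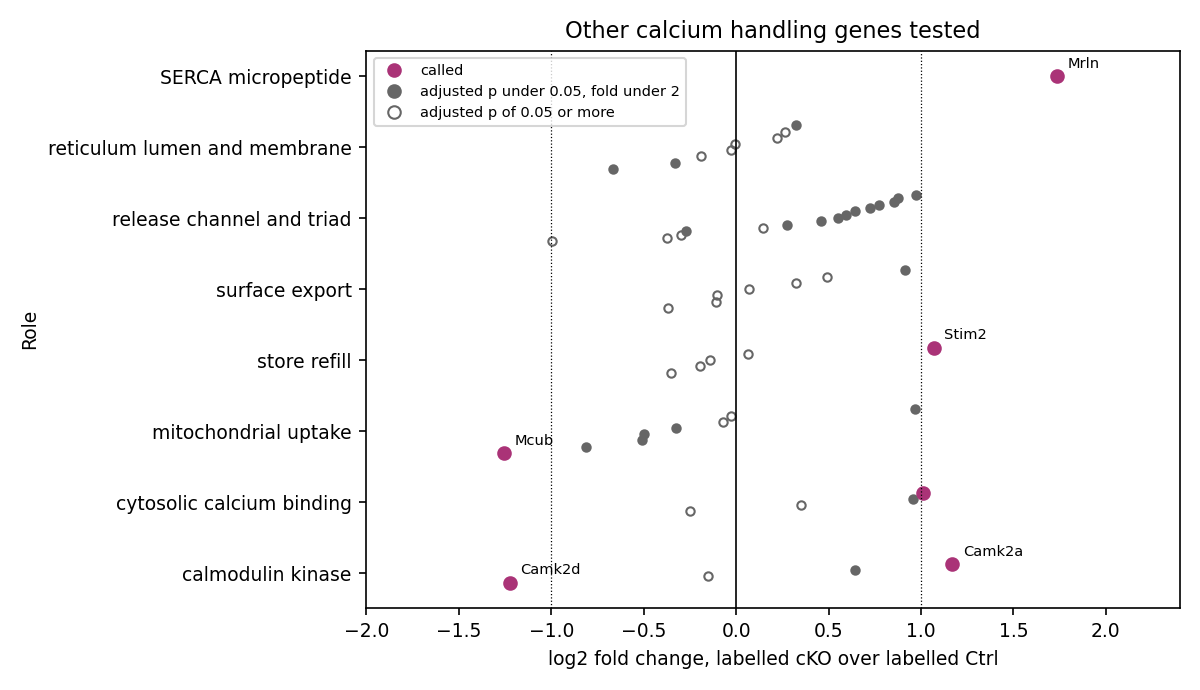
The log2 fold change, labelled cKO over labelled Ctrl, of the 52 tested genes of the calcium machinery beside the members, by role; points are genes, filled where the adjusted p is below 0.05, larger where also changed by more than 2-fold. The release channel and triad genes lie mostly right of 0, with 10 of 15 passing toward cKO, beside 12.6% of all tested genes. The mitochondrial uptake genes lie mostly left, with 5 of 8 passing toward Ctrl, beside 11.8% of all tested genes.

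The genes whose pattern over the 6 libraries was nearest to each member were found by the root mean square difference of log2 CPM, after subtracting each gene's mean, among the 8058 other tested genes with a mean of at least 10 CPM. No gene came close to Sln, the nearest being Ndrg4 (1.37), Kcne1l (1.56) and Rrad (1.65). Nearest to Atp2a2 were the slow fiber genes Myl2 (0.228), Tnnt1 (0.306) and Tnni1 (0.311), and nearest to Pvalb was the fast myosin gene Myh4 (0.0602), followed by D1Ertd622e (0.0888) and Mafa (0.0954). Casq1 lay nearest to Myoz1 (0.0335), Sar1b (0.0515) and Dagla (0.0609), and Atp2a1 to Dagla (0.0426), Hoxd9 (0.0507) and Tab2 (0.0554). Atp2a1 and Casq1 themselves differed by 0.0707. Casq2 was nearest to Idh2 (0.204), Pdlim1 (0.213) and Myh10 (0.233), Pln to Use1 (0.102) and Cnnm4 (0.108), and Atp2a3 to Gramd1a, Rusc1 and Mecr. The patterns share their libraries and are given as a description.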

How the data were processed

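RNA-seq libraries (poly(A)-selected, paired-end, 75 bases) came from GP muscle of 6 mice, 3 per label, each mouse 1 library. The deposited values are raw counts per gene, which the authors obtained with Trimmomatic 0.39, HISAT2 2.1.0 (mouse genome mm10) and featureCounts 1.6.2 after FastQC 0.11.8, per the submitters' processing notes and the study's methods; the gene annotation and the strand setting are not given in the sources used here. Counts were compared with edgeR 4.0.16 (R 4.3.3; filterByExpr, TMM factors, quasi-likelihood test, Benjamini-Hochberg adjustment over 14180 genes). Standard errors were derived from the F statistic. A call required an adjusted p below 0.05 and a change of more than 2-fold. Single ratios were compared by exact permutation (SciPy 1.17.1). CPM were divided by TMM-scaled totals. Exon lengths, positions and coding sequences are those of GENCODE M21, in which 95.7% of symbols were found. Alternatives were other scalings, filters and fold limits, a robust fit, DESeq2 1.42.0, other gene lengths, the mouse number as a block, and leaving out libraries.

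The members and gene lists were chosen with earlier results of these data known. The text names all 8 members, Net39, the called and the most abundant genes of the other calcium roles, the marker lists, and the 3 nearest patterns per member; a few genes that this rule names are not reported here. Scripts were tested on simulated data. Replicates differed by more than counting noise, so totals of 33860001 to 48839910 counts do not limit the abundant members; spread between mice does.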

Additional observations from a re-analysis of the deposited data

How the results depend on the processing

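Sln kept its call, and Pln and Atp2a3 stayed uncalled, under all 15 alternatives for the fold changes. Leaving out 1 library moved the log2 fold change of Atp2a1 from 0.91 to 1.12, of Atp2a2 from -3.49 to -2.30, of Casq1 from 0.86 to 1.13, of Casq2 from -1.77 to -1.26 and of Pvalb from 1.18 to 1.73, and calls were lost or gained as given with each gene. Members called then ranged from 1 to 3 toward cKO and from 1 (without Ctrl 1) to 3 toward Ctrl, the other calcium genes from 1 to 7 and from 1 to 3, and all genes from 172 to 387 and from 398 to 685, beside 302 and 556 with all libraries. Without Ctrl 1 and cKO 3 together, an alternative added after seeing the data, Atp2a1 (0.94, adjusted p = 0.176) and Pvalb (1.13, adjusted p = 0.0999) were not called and Casq1 (0.83) had an adjusted p of 0.0916, leaving 0 members toward cKO, 1 other calcium gene in each direction, and 50 and 168 genes in all.

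Scaled by library totals alone, the median of all genes moved from -0.02 to -0.27, Atp2a1 was at 0.76 (1.03 above that median under either scaling) and was not called, and the adjusted p of Pln (-0.82) and Atp2a3 (-0.70) came to 0.0295 and 0.0117 without a 2-fold change. That scaling called 1 member toward cKO, 1 and 4 other calcium genes, and 157 and 1022 genes in all, and it reversed Atp2b1 (-0.18). With upper quartile factors Atp2a1 was at 0.99 and 1 member was called toward cKO. Casq1 passed 2-fold with DESeq2 size factors (1.01), without a filter on low counts (1.00) and in DESeq2 (1.00). Without a fold limit, 19 and 9 other calcium genes and 1786 and 1668 genes in all passed. Per Myh7 count and per slow fiber list, the direction reversed for Pln (2.26 and 1.98), Atp2a3 (2.43 and 2.15) and Casq2 (1.22 and 0.94).

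Both groups carry mouse numbers 1 to 3, but same-numbered libraries did not deviate together (correlations 0.0835, -0.215 and -0.00201). Not every library was closest to its own number. These correlations cannot show whether same-numbered mice were otherwise paired, and the main test used no pairing. With the number as a replicate block Atp2a1 was at 1.02 (adjusted p = 0.0544), Casq1 at 1.01 and past 2-fold, and 1 other calcium gene was called toward Ctrl, Mcub having lost its call. The cause of these changes was not tested. With 3 libraries a group, exact permutation cannot go below 0.10, and single libraries were not screened as outliers.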
